A study of Homo sapiens with 6 samples.

Results

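The genes described here are the transcription factor NFE2L2 (NRF2), its repressor KEAP1 and 7 antioxidant or detoxification genes that NRF2 is known to drive, HMOX1, NQO1, GCLM, GCLC, TXNRD1, SRXN1 and OSGIN1. They were found in the deposited count table by matching Ensembl identifiers without their version to these symbols, which gave 9 of the table's 64299 genes, 1 identifier each. The cystine transporter gene SLC7A11 was kept apart because ATF4 drives it as well. The cells were HEK293T, a transformed human embryonic kidney line, transfected with a plasmid labelled ERbeta in 3 libraries and with an empty vector, EV_Ctrl, in 3. Both groups received FuGene 6, so all libraries are of cells that were exposed to this transfection reagent and a plasmid. From background knowledge of the study, and not from the labels, ERbeta is a designed β-sheet protein routed to the endoplasmic reticulum (ER), unrelated to the estrogen receptor. The question is how its presence in the ER changes the cells' mRNA.

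In unstressed cells KEAP1 holds NRF2 in the cytoplasm and presents it to a CUL3 ubiquitin ligase, so that the protein is destroyed soon after it is made. Electrophiles and oxidants modify cysteines of KEAP1, NRF2 then accumulates, pairs with a small MAF protein in the nucleus and binds antioxidant response elements beside its target genes. Because this control acts on the protein, the mRNA of NFE2L2 is not a readout of NRF2 activity, and the mRNAs of its targets are the usual one. PERK, a kinase that senses misfolded protein in the ER, has been linked to NRF2 as well as to ATF4.

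Total counts were between 13149304 and 16531368 in the ERbeta libraries and 6833442, 27101644 and 10806375 in EV_Ctrl 1, 2 and 3. The libraries did not divide by group alone. On the leading axis of a principal component analysis of log2 CPM (read counts scaled to a library total of 1000000), which held 60.8% of the variance, EV_Ctrl 2 lay at -13.9, beside ERbeta 1 and 2 at -16.3 and -13.9, while EV_Ctrl 1 and 3 lay at 44.7 and 41.5 and ERbeta 3 stood apart at the other end, at -42.1. Base composition moved with this axis. Genes whose transcripts hold under 42% G and C had a median deviation from the mean of all libraries of -0.38 and -0.33 (log2) in EV_Ctrl 1 and 3, whereas ERbeta 3 was at 0.39 and the remaining libraries lay between 0.11 and 0.16. Its part in the results was not tested beyond the values with a correction for GC content, which are given below where they differ most, as are those without EV_Ctrl 2. The line's markers PAX2, LHX1, INA and NEFM were read in all 6 libraries, with PAX2 the lowest at 3.85 to 11.4 CPM. CD3E had 0 reads and PTPRC 1 read in all, whereas the fibroblast gene COL1A1 was at 13.5 to 31.0 CPM, and whether it bears on any result was not tested.

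Through the antioxidant response element the pathway reaches its targets, so the matches near member start sites are shown first. The letters TGACNNNGC were searched on both strands in RefSeq promoter windows on GRCh38.p14, each from 250 bases before to 50 after a transcription start. Windows were found for 8 of the 9 genes, all but HMOX1, 11 windows in all, and 3 genes held at least 1 match: KEAP1, GCLM and TXNRD1. Among all genes with such a window 16.1% held a match, and among all windows 13.3%. The stretches below run 5′ to 3′ on the gene's own strand. Capitals mark a match in each, which lies on the opposite strand and therefore reads GCNNNGTCA.
GCLM, chr1:93909430-93909490, minus strand: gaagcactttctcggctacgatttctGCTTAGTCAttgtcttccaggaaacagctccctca
KEAP1, chr19:10502768-10502828, minus strand: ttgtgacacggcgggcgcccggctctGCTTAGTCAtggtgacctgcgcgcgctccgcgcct
TXNRD1, chr12:104286904-104286964, plus strand: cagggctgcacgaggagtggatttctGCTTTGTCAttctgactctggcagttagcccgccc
The 9 capital letters are the same in GCLM and KEAP1. They begin 34 bases before the start in GCLM and 31 bases before an annotated start in KEAP1. In TXNRD1 they begin 102 bases before one of the annotated starts. KEAP1 and TXNRD1 each held other matches as well. That of KEAP1, on the gene's own strand and 54 bases before the same start, lies in lower case within the stretch shown. A match is a description of these letters and does not show that the site is used, and elements farther away lie outside these windows.

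NFE2L2 mRNA stood higher in every ERbeta library than in every EV_Ctrl library, while the fold changes of the target genes were smaller and of both signs. HMOX1, NQO1 and SRXN1 had log2 fold changes between -0.12 and -0.03, and GCLM, GCLC, TXNRD1 and OSGIN1 lay between 0.13 and 0.32. All 9 genes passed the filter on low counts. With edgeR's quasi-likelihood test and Benjamini-Hochberg adjustment over 16243 genes, 0 of the 9 passed the threshold of 0.05, where 0% of all genes did. At an unadjusted p under 0.05 there was 1 gene higher, NFE2L2, against a background of 9.54% of all genes, and 0 lower against 2.88%. The groups did not overlap for 2 genes, NFE2L2 and GCLC, both with ERbeta higher, where this held for 10.2% of all genes, and for 0 with ERbeta lower (8.48% of all genes). The first of these counts is near the background, and the second includes GCLC, whose groups are parted by a narrow margin. The median log2 fold change was 0.13 over the 9 genes, 0.13 over the 7 targets and -0.01 over all genes tested. Over the 9 it was 0.06 with GC correction, 0.035 with library size only (all genes -0.10), 0.05 without ERbeta 1 and 0.20 without ERbeta 2. DESeq2 called 0.437% of all genes and limma-voom 0.00616%, none of them among the 9. With GC correction edgeR called 0.0559% of all genes and again none of the 9.

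**Figure D1:**
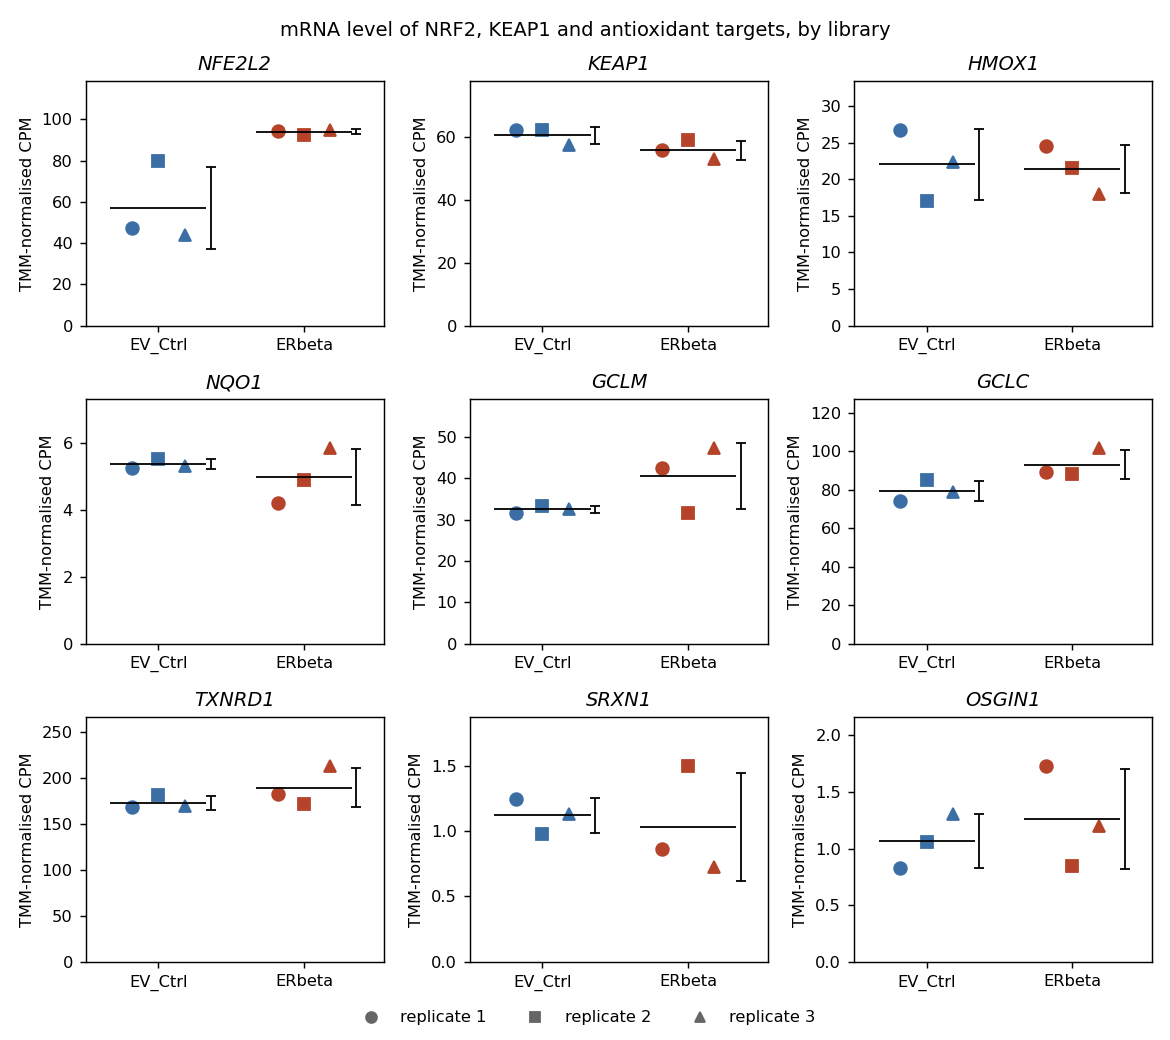
Level of each gene in TMM-normalised CPM (vertical axis, starting at 0) in the 3 EV_Ctrl and 3 ERbeta libraries. Points are libraries with a shape per replicate, horizontal lines are means and bars are SD. NFE2L2 is at 92.6 to 94.9 CPM in ERbeta, and EV_Ctrl 2 at 79.7 lies apart from the other controls.

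NFE2L2 lies on chromosome 2 (177227595 to 177392697, minus strand, GRCh38) and encodes the basic leucine zipper factor NRF2. Its level, as CPM after TMM normalisation (trimmed mean of M values), was 94.6, 92.6 and 94.9 in ERbeta 1, 2 and 3. In EV_Ctrl 1, 2 and 3 it was 47.4, 79.7 and 43.8 CPM. The ERbeta libraries lay close together, and the spread was within the controls, of which EV_Ctrl 2 was nearest to ERbeta. The means were 94.1 ± 1.24 and 57.0 ± 19.8 CPM (SD, n = 3 each). On the log2 scale ERbeta was higher by 0.72 ± 0.22 (SE), with a 95% interval of 0.20 to 1.23, or 1.64-fold. Its adjusted p in edgeR's test was 0.397. In bulk RNA, fewer cells carrying a transcript and less of it per cell cannot be told apart.

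How far NFE2L2 differed depended on which controls were used. Without EV_Ctrl 2 the log2 fold change was 1.05 with an adjusted p of 0.000183 in edgeR, and NFE2L2 was the 1 gene of the 9 that passed, where 13.5% of all genes passed as higher. Without EV_Ctrl 1 and 3 it was 0.24 with an adjusted p of 1 in edgeR's test, the lone control then being assumed to vary like the ERbeta libraries. NFE2L2 transcripts hold 45.6% G and C, and the GC correction left the value at 0.68 with all libraries and 1.00 without EV_Ctrl 2 (adjusted p 5.92e-05 in edgeR). In the authors' deposited table the log2 fold change was 0.485 with an adjusted p of 0.0717, against 0.71 with DESeq2 here. That comparison gives CD3E a mean signal of 0.1998, although CD3E had 0 reads in all 6 libraries. Its values therefore do not come from these counts alone and cannot be set like for like against the fits here. It also gives GPX2 a standard error of only 0.0195 at a mean signal of 0.077. Whether its fold changes were drawn toward 0 in fitting is not given, so 0.485 cannot be read as a smaller effect. Exons of other annotated genes cover part of the NFE2L2 exon bases. A sense-overlapping transcript covers 17.6% of them and had 132 reads over all libraries, against 7095 for NFE2L2.

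The ratio of NFE2L2 to KEAP1 does not depend on how the libraries are scaled. It was not corrected for GC content, in which NFE2L2 and KEAP1 transcripts differ, at 45.6% and 60.3%. With counts divided by exon length it was 1.07, 0.992 and 1.13 in ERbeta 1, 2 and 3. These lengths sum all annotated exons, so a ratio near 1 does not show that factor and repressor transcripts were equal in number. The ratio was 0.481, 0.807 and 0.482 in EV_Ctrl 1, 2 and 3. The groups did not overlap, but neither did those of NFE2L2 alone, as for 10.2% of all genes with ERbeta higher. The ratio is therefore no separate evidence, and the share for other ratios was not computed. EV_Ctrl 2 had a 95% interval of 0.756 to 0.861 and the lowest ERbeta interval was 0.912 to 1.08, from counting error alone. Libraries within a group differed by more than counting noise (chi-square per degree of freedom 4.99 to 38.9). These intervals therefore do not show that EV_Ctrl 2 differs from ERbeta. Against NFE2L1 (NRF1), a paralog that resides in the ER membrane and drives proteasome genes, the ratio was 0.266 to 0.279 in ERbeta. It was 0.129, 0.228 and 0.120 in EV_Ctrl 1, 2 and 3. NFE2L1 itself was at 336 ± 9.04 and 352 ± 10.2 CPM in ERbeta and EV_Ctrl, a log2 fold change of -0.07 ± 0.09 (SE) that turned to 0.04 with GC correction. NFE2L3, the third factor of this family, was at 34.6 ± 1.22 and 33.4 ± 4.14 CPM, a log2 fold change of 0.04 ± 0.13 whose sign turned with library size only.

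**Figure D2:**
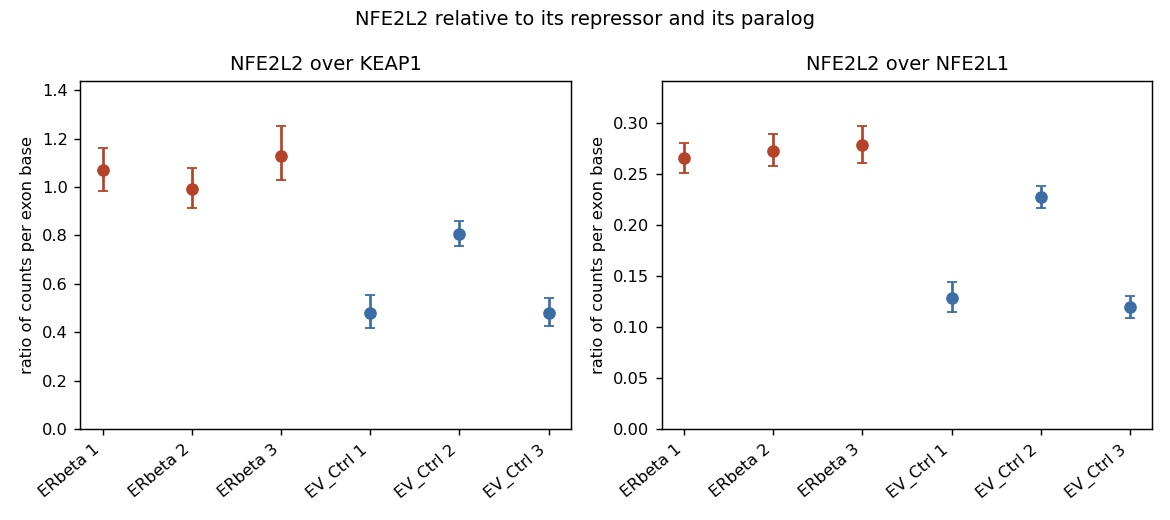
Ratio of NFE2L2 to KEAP1 (left) and to NFE2L1 (right), as counts per exon base, in each library; bars are exact binomial 95% intervals of the counts. Red is ERbeta and blue EV_Ctrl. In both panels EV_Ctrl 2 sits between the other controls and ERbeta.

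KEAP1, on chromosome 19 (10486120 to 10503741, minus strand), encodes the cysteine-rich adaptor that senses electrophiles and hands NRF2 to the ligase. It was at 55.6, 58.8 and 52.7 CPM in ERbeta 1, 2 and 3 and at 61.9, 62.1 and 57.2 in EV_Ctrl. The groups overlapped, with ERbeta 2 above EV_Ctrl 3. The log2 fold change was -0.12 ± 0.10 (SE), with a 95% interval of -0.36 to 0.12 and an adjusted p of 0.621 in edgeR's test. With GC correction it was 0.02, so these data give no stable direction for KEAP1, whose transcripts are rich in G and C at 60.3%.

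GCLC and GCLM encode the catalytic and the modifier subunit of glutamate-cysteine ligase, which makes the rate-limiting step of glutathione synthesis. GCLC (chromosome 6, 53497341 to 53616970, minus strand) was at 89.2, 88.4 and 102 CPM in ERbeta and at 74.4, 85.1 and 78.8 CPM in EV_Ctrl. All ERbeta libraries lay above all controls, by a narrow margin between ERbeta 2 and EV_Ctrl 2. The log2 fold change was 0.23 ± 0.11 (SE), with a 95% interval of -0.03 to 0.48 and an adjusted p of 0.409 in edgeR, and it was 0.14 with GC correction. In the authors' deposited table GCLC was at 0.201 with an adjusted p of 0.0492, just inside 0.05, and was the 1 member below that threshold there, where 3.35% of genes with an adjusted p were below it and higher.

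GCLM (chromosome 1, 93885205 to 93909456, minus strand) was at 42.6, 31.7 and 47.3 CPM in ERbeta and at 31.6, 33.4 and 32.5 CPM in EV_Ctrl. ERbeta 1 and 3 lay above the controls and ERbeta 2 among them. Its log2 fold change was 0.32 ± 0.16 (SE) with an adjusted p of 0.419 in edgeR. GCLM transcripts have the lowest share of G and C among the 9 genes, 37.3%, and GC correction turned the sign to -0.25. With GC correction and without EV_Ctrl 2 it was -0.44 with an adjusted p of 0.0451 in edgeR. In that fit NFE2L2 passed as higher, where 6.41% of all genes did, and GCLM as lower, where 3.87% did. The sign for GCLM therefore depends on the correction. Counts per exon base of GCLC were 1.31, 1.75 and 1.35 times those of GCLM in ERbeta 1, 2 and 3, and 1.48, 1.60 and 1.52 times in EV_Ctrl, so the ratio of the subunit transcripts overlapped between groups.

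TXNRD1 and SRXN1 belong to the thioredoxin arm of the response. TXNRD1, a selenoprotein that reduces thioredoxin with NADPH, lies on chromosome 12 (104215779 to 104350305, plus strand) and was at 183, 172 and 213 CPM in ERbeta and 168, 181 and 169 in EV_Ctrl. Only ERbeta 1 and 3 exceeded every control, and the log2 fold change was 0.13 ± 0.11 (SE), with a 95% interval of -0.13 to 0.39 (adjusted p 0.603 in edgeR), or 0.06 with GC correction. Per kilobase of exon it was the most abundant transcript of the 9, at 28.2 ± 3.14 in ERbeta and 25.7 ± 1.09 CPM per kb in EV_Ctrl (SD, n = 3 each). The mitochondrial paralog TXNRD2 had a log2 fold change of -0.07 ± 0.12 that turned to 0.10 with GC correction. TXNRD3, a further thioredoxin reductase, was at 0.15 ± 0.21 on the log2 scale (-0.04 without ERbeta 3).

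SRXN1 encodes sulfiredoxin, which restores overoxidised peroxiredoxins, and lies on chromosome 20 (646615 to 653370, minus strand). It had only 14, 23 and 9 reads in ERbeta and 9, 26 and 13 in EV_Ctrl, or 0.722 to 1.498 CPM over all libraries with overlapping groups. A protein-coding gene annotated on the same strand, AL121758.1, covers 85.0% of the exon bases of SRXN1 and had 0 reads in all libraries. How reads falling on both genes were counted is not given in the sources used here, and the effect on the level of SRXN1 was not tested. The log2 fold change was -0.06 ± 0.33 (SE) with a 95% interval of -0.83 to 0.71, so these data do not exclude a difference inside that interval. It was 0.02 with GC correction and -0.17 without EV_Ctrl 2.

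HMOX1 encodes the inducible haem oxygenase, often the most responsive gene of the pathway and one that BACH1 represses. On chromosome 22 (35380361 to 35394214, plus strand), it was at 24.6, 21.6 and 18.1 CPM in ERbeta and at 26.7, 17.1 and 22.3 CPM in EV_Ctrl. The groups overlapped fully, with both the highest and the lowest value in a control library. The log2 fold change was -0.03 ± 0.19 (SE), with a 95% interval of -0.47 to 0.42 (adjusted p 0.961 in edgeR). Its sign turned with GC correction (0.10) and without EV_Ctrl 1 and 3 (0.33), and it was -0.18 without EV_Ctrl 2. The constitutive paralog HMOX2 was at 44.1 ± 3.995 and 48.6 ± 2.57 CPM, a log2 fold change of -0.14 ± 0.12 (0.04 with GC correction and without EV_Ctrl 2).

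NQO1, the NAD(P)H quinone dehydrogenase that removes quinones without forming reactive intermediates, lies on chromosome 16 (69706996 to 69726951, minus strand). It was at 4.20, 4.89 and 5.86 CPM in ERbeta and 5.26, 5.54 and 5.31 in EV_Ctrl, from 38 to 147 reads a library. The controls lay within the ERbeta range, and the log2 fold change was -0.12 ± 0.17 (SE), with a 95% interval of -0.52 to 0.27 (adjusted p 0.758 in edgeR). Per kilobase of exon NQO1 stood at 1.53 ± 0.26 in ERbeta and 1.65 ± 0.05 CPM per kb in EV_Ctrl, above only SRXN1 and OSGIN1. Its paralog NQO2 had a log2 fold change of -0.07 ± 0.12.

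OSGIN1, an oxidative stress induced growth inhibitor, lies on the same chromosome (83948282 to 83966332, plus strand). It had 28, 13 and 15 reads in ERbeta and 6, 28 and 15 in EV_Ctrl, or 0.83 to 1.73 CPM with overlapping groups. The log2 fold change was 0.23 ± 0.33 (SE), with a 95% interval of -0.54 to 0.99, and was 0.37 with GC correction and -0.10 without ERbeta 1. Its paralog OSGIN2 was at 26.9, 23.4 and 32.4 CPM in ERbeta and 15.9, 24.3 and 11.3 in EV_Ctrl, a log2 fold change of 0.66 ± 0.27 (adjusted p 0.397 in edgeR). That value was 0.23 with GC correction. Without EV_Ctrl 2 it was 1.04 with an adjusted p of 0.00344 in edgeR, where 13.5% of all genes passed as higher. As for NFE2L2, EV_Ctrl 2 lay nearer to ERbeta than the other controls did. Unlike for NFE2L2, the groups overlapped, with EV_Ctrl 2 above ERbeta 2.

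**Figure D3:**
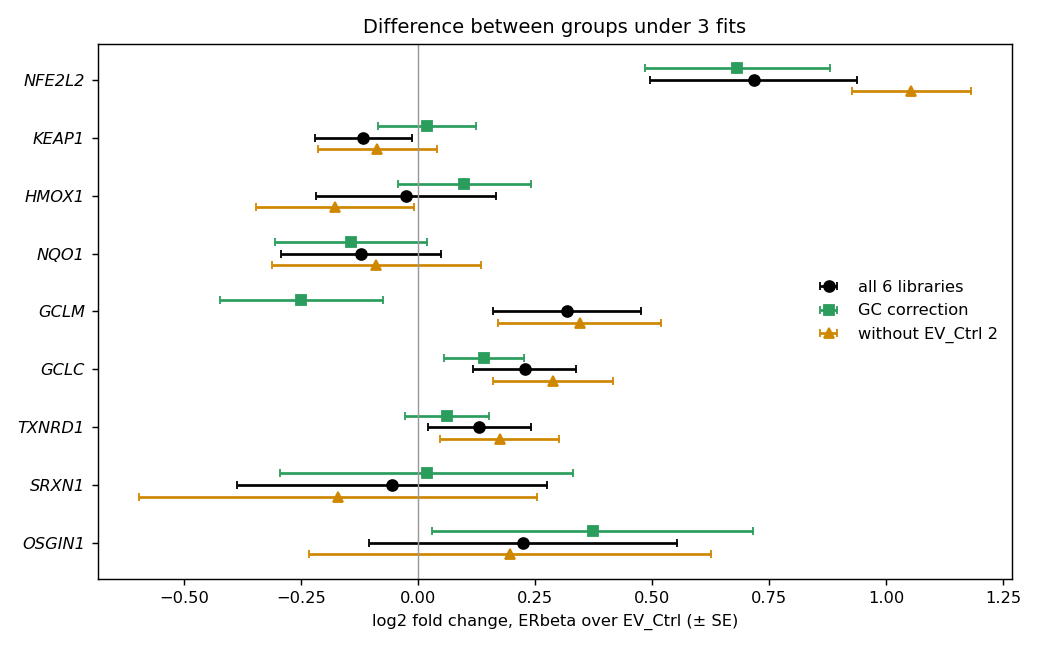
Log2 fold change of ERbeta over EV_Ctrl (horizontal axis) with its SE for each gene under 3 fits: all 6 libraries, GC correction, and without EV_Ctrl 2. NFE2L2 is at 0.72, 0.68 and 1.05; GCLM crosses 0 with GC correction, at -0.25.

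Per kilobase of exon the order of the 9 genes in EV_Ctrl was TXNRD1, KEAP1, NFE2L2, GCLC, HMOX1, GCLM, NQO1, SRXN1 and OSGIN1. NFE2L2, GCLC and HMOX1, at 9.53 ± 3.30, 9.19 ± 0.62 and 9.16 ± 2.01 CPM per kb (SD, n = 3), lay within their spread of each other, as did SRXN1 and OSGIN1 at 0.42 ± 0.05 and 0.31 ± 0.07. In ERbeta NFE2L2 stood second at 15.7 ± 0.21, beside KEAP1 at 14.8 ± 0.80 CPM per kb. Exon lengths here sum all annotated exons of a gene, so genes with many unused exons are set too low.

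The wider pathway was followed in 60 further genes in 6 lists, of which 52 passed the filter on low counts. None passed edgeR's, DESeq2's or limma-voom's test over all genes as run here. Of the 52, 25 had a positive and 27 a negative log2 fold change, and the median was -0.01, as over all genes. That split was 13 and 39 with library size only, where all genes divided into 5892 and 10351. Without EV_Ctrl 3 it was 14 and 39, where all genes divided into 8291 and 8365. At an unadjusted p under 0.05 there were 3 of 52 higher, against 9.54% of all genes, and 0 lower, against 2.88%. Without EV_Ctrl 2, 4 of 51 passed as higher, CUL3, BACH1, PRDX3 and ABCC2, where 13.5% of all genes did. With GC correction as well there were 3, ABCC2 higher (6.41% of all genes) and ME1 and GSTA4 lower (3.87%), and the last pair was named after its values were seen, at -0.67 and -0.71 in that fit against -0.02 and -0.04 with all 6 libraries and no correction.

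**Figure D4:**
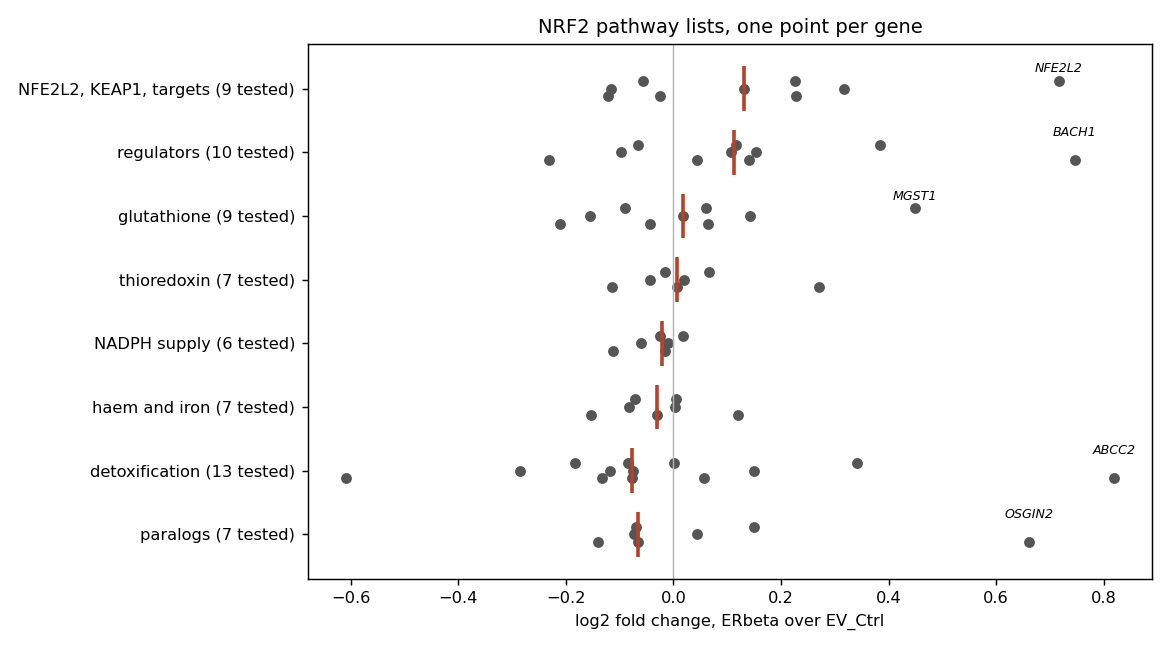
Log2 fold change of ERbeta over EV_Ctrl for each tested gene of the pathway lists (1 point a gene; vertical offsets only separate points), with red bars at list medians. Medians run from -0.08 for detoxification to 0.13 for the 9 genes described here.

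Among the regulators, 10 of 10 were tested, 7 positive and 3 negative with a median log2 fold change of 0.11. BACH1, a repressor that competes with NRF2 for the same elements, was at 56.6, 48.2 and 75.9 CPM in ERbeta and 28.1, 50.9 and 27.7 in EV_Ctrl. EV_Ctrl 2 exceeded ERbeta 2, and the log2 fold change was 0.75 ± 0.27 (SE, adjusted p 0.397 in edgeR), or 0.32 with GC correction and 1.11 without EV_Ctrl 2. CUL3, the scaffold of the ligase that KEAP1 serves, was at 0.38 ± 0.12 with an adjusted p of 0.397 in edgeR and turned to -0.15 with GC correction. It was at 0.343 with an adjusted p of 0.034 in the authors' deposited table, where 3.35% of genes were below 0.05 and higher. RBX1, the RING subunit of that ligase, was at 0.12 ± 0.18 (-0.03 with GC correction, 0.28 without EV_Ctrl 2), and BTRC, an adaptor of another ligase that acts on NRF2, at -0.10 ± 0.13. SQSTM1 (p62), an autophagy receptor that binds KEAP1, was at 207 to 222 CPM in ERbeta and 187 to 201 in EV_Ctrl, 0.14 ± 0.09 on the log2 scale (0.26 with GC correction), and did not pass. The small MAF partners MAFG, MAFK and MAFF were at 0.11 ± 0.12, 0.15 ± 0.13 and -0.23 ± 0.28. With GC correction they were at 0.23, 0.33 and -0.06, and MAFF was at -0.54 without EV_Ctrl 2 and 0.38 without EV_Ctrl 1 and 3.

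The medians of the lists of effector genes lay between -0.08 and 0.02, with single genes farther out. In the glutathione list 9 of 13 were tested with a median of 0.02, led by the microsomal transferase MGST1 at 0.45 ± 0.25 and glutathione reductase GSR at -0.21 ± 0.16. MGST1 was at 0.29 with GC correction, and MGST1 and GSR at 0.75 and -0.32 without EV_Ctrl 2, where neither passed. In the thioredoxin list the median over 7 genes was 0.01, with the mitochondrial peroxiredoxin PRDX3 at 0.27 ± 0.16 and PRDX2 at -0.11 ± 0.16. PRDX3 was at 0.13 with GC correction and at 0.45 without EV_Ctrl 2 (adjusted p 0.044 in edgeR). The NADPH suppliers, 6 genes, had a median of -0.02 and ranged from -0.11 to 0.02 without GC correction, with PGD and TALDO1 of the pentose phosphate pathway at -0.11 ± 0.09 and -0.06 ± 0.11. With GC correction ME1, one of the 6, was at -0.44. For haem and iron handling the median over 7 genes was -0.03, with the ferritin light chain FTL at 0.12 ± 0.12 and the porphyrin transporter ABCB6 at -0.15 ± 0.16, which were 0.23 and -0.04 with GC correction. In the detoxification list 13 of 17 were tested with a median of -0.08. There the export pump ABCC2 was at 4.88, 4.04 and 5.54 CPM in ERbeta and 1.94, 3.09 and 2.79 in EV_Ctrl. Its groups did not overlap, as for 10.2% of all genes with ERbeta higher. In the same list 2 genes did not overlap with ERbeta lower, as for 8.48% of all genes. The log2 fold change of ABCC2 was 0.82 ± 0.22 (adjusted p 0.397 in edgeR) and 0.76 with GC correction. UGDH, which makes UDP-glucuronate, was at 0.34 ± 0.17, or 0.04 with GC correction.

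SLC7A11, which imports the cystine needed for glutathione, was at 44.8, 34.4 and 52.5 CPM in ERbeta and 18.2, 26.9 and 18.1 in EV_Ctrl. The groups did not overlap, as for 10.2% of all genes with ERbeta higher. The adjusted p of SLC7A11 was 0.362 in edgeR, 0.37 in limma-voom and 0.0078 in DESeq2. In edgeR with no filter on low counts it was 0.0319, where 51 of 30486 genes passed. Without EV_Ctrl 2 edgeR gave 1.28 with an adjusted p of 0.000649, or 0.37 with GC correction as well (adjusted p 0.109). In the authors' deposited table it was at 0.444 with an adjusted p of 0.109. Its log2 fold change of 1.05 (0.43 with GC correction) exceeded that of each of the 9 genes without correction, although the difference between genes was not tested. With GC correction the order turned, with NFE2L2 at 0.68, and at 1.00 against 0.37 for SLC7A11 when EV_Ctrl 2 was also left out.

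The genes whose pattern over the 6 libraries was nearest to that of NFE2L2 were EIF3J, TAF1D and SVIP, among 11190 genes whose log2 CPM averaged 3 or more. Likeness was the root mean square difference of log2 CPM after centring each gene, which was 0.0434, 0.0436 and 0.0464. EIF3J, a subunit of an initiation factor, was at 115, 117 and 122 CPM in ERbeta and 59.6, 106 and 57.3 in EV_Ctrl, again with EV_Ctrl 2 near ERbeta. For KEAP1 the nearest were LINC02381, LEMD2 and HPS6, at 0.0163, 0.0196 and 0.0204.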

How the data were processed

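RNA was measured in poly(A) libraries, made with the TruSeq Stranded mRNA kit per the labels' protocols, of 6 HEK293T samples. The submitters' processing notes name hg38, TopHat2, featureCounts and DESeq2. Which versions, annotation, strand and overlap settings were used is not given in the sources used here. The authors deposited whole-number read counts per gene, used here as counts. They also deposited a table of their comparison with a mean signal, log2 fold changes, standard errors and Wald scores, and p-values, per the file headers, which was only quoted. CD3E has a mean signal above 0 there with 0 reads here, so no value quoted from that comparison is like for like with these fits. Symbols came from the gene name table and GENCODE 29. The table held 0 columns outside the 6 libraries and 0 entries that name no gene.

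The members and lists were chosen with earlier results of these data known. Genes passing edgeR's filterByExpr (minimum count 10, minimum total 15) numbered 16243. They were normalised by TMM and tested with edgeR 4.0.16 (glmQLFit, glmQLFTest, two-sided, group as the only term) in R 4.3.3, with Benjamini-Hochberg adjustment at 0.05 over all genes; standard errors (SE) of log2 fold changes were derived from the test's F statistic. Alternatives used DESeq2 1.42.0, limma 3.58.1 (voom), other scalings and filters, a replicate block, left-out libraries, and a GC correction (a loess curve with span 0.5 of each library's log2 CPM against GC content, taken from the longest transcript and used as an offset; 99.1% of tested genes had a value). The steps were tested on simulated counts. Whether replicates were separate cultures is not in the labels, and p-values therefore reflect only how far these libraries vary, which may be technical variation. Within groups, library pairs differed by more than counting noise (chi-square per degree of freedom 4.99 to 38.9). The 95% intervals of count ratios were exact binomial ones, for counting error alone. Named genes were all 9 members, the 2 genes with the smallest p in each of the 6 wider lists, the regulators and paralogs, SLC7A11, and the 3 nearest patterns; figures were drawn with matplotlib.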

Additional observations from a re-analysis of the deposited data

How the results depend on the processing

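Over the 37 genes followed, 627 log2 fold changes were recomputed, of which 557 kept their sign and their side of the threshold, 13 kept their sign and passed it, and 57 turned sign. Of the 151 for the 9 NRF2 genes, 130, 2 and 19 did, and 1 of the 19 that turned sign, GCLM with GC correction without EV_Ctrl 2, also passed. The genes passing numbered 51 with no filter on low counts, 71 with DESeq2's test, 1 with limma-voom, 9 with GC correction and 1657 with GC correction without EV_Ctrl 2. Leaving out 1 library gave 0 to 2324 genes passing, 0 to 1 of the 9 NRF2 genes and 0 to 4 of the wider lists, with the highest each time without EV_Ctrl 2. With GC correction without EV_Ctrl 2, 2 of the 9 and 3 of the wider lists passed. Deviations from the group means of same-numbered libraries correlated at 0.23, -0.14 and -0.15, within the -0.37 to 0.36 of pairs with different numbers. So few values cannot decide whether the numbers pair the libraries. With the replicate block 0 genes passed, as without it, and NFE2L2 was at 0.77. With library size only the median log2 fold change of all genes was -0.10, and NFE2L2 was at 0.64.

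Signs turned as follows, and the cause was not tested. With GC correction KEAP1 was at 0.02, HMOX1 at 0.10, GCLM at -0.25, SRXN1 at 0.02, CUL3 at -0.15, RBX1 at -0.03, TALDO1 at 0.05, TXNRD2 at 0.10 and NFE2L1 at 0.04. Adding the replicate block to that correction, KEAP1 was at 0.02, HMOX1 at 0.10, GCLM at -0.25, SRXN1 at 0.05, CUL3 at -0.15, RBX1 at -0.03, TALDO1 at 0.06, TXNRD2 at 0.10 and NFE2L1 at 0.04. With GC correction without EV_Ctrl 2 KEAP1 was at 0.09, GCLM at -0.44, CUL3 at -0.25, PGD at 0.01, TALDO1 at 0.12, UGDH at -0.03, HMOX2 at 0.04, TXNRD2 at 0.07 and NFE2L1 at 0.06. Without EV_Ctrl 1 and 3 HMOX1 was at 0.33, SRXN1 at 0.09, GSR at 0.05, PRDX3 at -0.01, PRDX2 at 0.07, TXNRD2 at 0.08, TXNRD3 at -0.12, NFE2L3 at -0.14, RBX1 at -0.14, MAFF at 0.38 and ME1 at 0.19. There the group difference in log2 ratio of NFE2L2 was 0.40 to KEAP1 and 0.26 to NFE2L1. With limma-voom HMOX1 was at 0.02 and ME1 at 0.005, and with library size only NFE2L3 was at -0.05. Leaving out 1 library gave ranges of 0.56 to 1.05 for NFE2L2, -0.18 to 0.13 for HMOX1, -0.43 to 0.12 for SRXN1, -0.10 to 0.46 for OSGIN1, -0.25 to 0.009 for PRDX2, -0.15 to 0.007 for TALDO1, -0.14 to 0.003 for TXNRD2, -0.04 to 0.35 for TXNRD3, -0.02 to 0.16 for NFE2L3, -0.04 to 0.28 for RBX1, -0.11 to 0.07 for ME1 and -0.10 to 0.04 for GSTA4. SRXN1 and OSGIN1 had only 6 to 28 reads a library, so their log2 fold changes are uncertain. For SRXN1 the part of the overlapping gene in this was not tested.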
